A study of Bos taurus with 4 samples.

Results

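tRNA-Asp fragments are short RNAs whose sequence lies within the tRNA that carries aspartate. Members were all names of the annotation that gave a fragment of a tRNA of an Asp type, whatever their level, so no measured value chose them. There were 133 such names among 38611 names of the series, from 42 tRNA gene copies, of which 39 have the anticodon GTC and 3 the anticodon ATC. They were attached to 1262 of 2468643 distinct sequences, and 1196 of these sequences had tRNA-Asp names alone. A sequence with several names was shared equally among them.

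The libraries hold small RNA from GV (germinal vesicle) stage oocytes of cattle, which have not yet resumed meiosis, in 2 groups of 2 libraries. One group was input RNA with no antibody, and the other was RNA recovered with an antibody against TDRKH (anti-Tdrkh), which binds PIWI proteins through its tudor domain. No genotype, treatment or time differed between the groups, no IP with a control antibody is among the libraries, and the labels do not say whether the libraries of a group came from separate pools of oocytes. The p-values therefore measure only the spread between these libraries, which may be technical, and binding to TDRKH cannot be told apart from carry-over that any IP would have.

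tRNAs are cut by endonucleases, in particular in the anticodon loop, into a 5′ and a 3′ piece, and shorter fragments arise from cuts in the other loops. In animals tRNA-Asp carries queuosine at the first base of its anticodon and is a substrate of the methyltransferase DNMT2, which methylates a cytosine of the anticodon loop. PIWI proteins hold piRNAs, many of which begin with uridine (T in sequenced DNA), and TDRKH is known in mice as a mitochondrial partner of PIWI proteins.

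The listed reads numbered 1079364 in input 1, 1354003 in input 2, 11138905 in TDRKH IP 1 and 11060320 in TDRKH IP 2. Names of piRNA clusters, the mark of germ cells used here, took 88.8% and 87.8% of the input reads and 96.9% and 96.8% of the IP reads. All 5 microRNAs listed as markers of cumulus and granulosa cells had reads, with sums of 449 and 505 reads per 1000000 listed reads (RPM) in the inputs and 6.28 and 12.7 RPM in the IPs, and miR-132 among them was at 0 in both IPs. Of 3 leukocyte microRNAs, miR-150 had 10.2 and 10.3 RPM in the inputs, miR-142 had 5.56 and 0 RPM, and miR-223 was at 0. All 3 were at 0 in the IPs, and both erythroid microRNAs were at 0 throughout. The single marker of liver and follicular fluid, miR-122, had 435 and 335 RPM in the inputs and 1.71 and 2.35 RPM in the IPs. Whether RNA of other cells in the inputs had a part in the results was not tested. Within the inputs, few cells of a type and little RNA per cell cannot be told apart. The contrast of inputs with IPs measures neither.

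The reads of tRNA-Asp could be joined into 1 molecule of 75 nt, which is given first because all positions below are counted on it from 1 at its 5′ end. The capitals mark the anticodon, positions 34 to 36, and the last 3 bases are the CCA end that is added to mature tRNAs. The other sequences are the members that the comparison turns on, with the capitals marking anticodon bases they hold and bases that differ from the molecule.
tRNA-Asp assembled from the reads: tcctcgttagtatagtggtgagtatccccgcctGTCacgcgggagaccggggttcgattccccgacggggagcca
5p-tRF, positions 1 to 27: tcctcgttagtatagtggtgagtatcc
5p-tR-half, positions 1 to 36: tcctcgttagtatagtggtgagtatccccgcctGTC
misc-tRF, positions 35 to 66: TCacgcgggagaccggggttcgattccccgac
misc-tRF, positions 35 to 67 with G67A: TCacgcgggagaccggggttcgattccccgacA
misc-tRF, positions 35 to 67: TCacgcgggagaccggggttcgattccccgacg
misc-tRF, positions 35 to 68: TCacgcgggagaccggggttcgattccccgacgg
misc-tRF, positions 35 to 69: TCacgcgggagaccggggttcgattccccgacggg
misc-tRF, positions 35 to 70: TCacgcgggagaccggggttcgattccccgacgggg
misc-tRF, positions 37 to 70: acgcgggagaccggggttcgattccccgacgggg
3p-tR-half, positions 39 to 73: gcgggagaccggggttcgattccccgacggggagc
3p-tR-half, positions 39 to 73 with A57T: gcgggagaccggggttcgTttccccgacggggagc
3p-tR-half, positions 40 to 75: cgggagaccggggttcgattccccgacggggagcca

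The listed sequences were of 18 to 36 nt, which bounds what can be seen of the molecule. A fragment that starts at 35 can be read only to position 70, so its end at the CCA tail lies outside the list, and the CCA tail is seen only in fragments that start at 40 or later. A 5′ piece is seen only where it ends at 36 or before.

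tRNA-Asp reads made up a smaller part of the small RNAs recovered with TDRKH than of the input, but a larger part of the tRNA reads. The 970 and 1563 reads of the inputs stood for 899 and 1155 RPM, and the 4528 and 3654 reads of the IPs for 406 and 330 RPM. Both IPs lay below both inputs, with means of 1027 ± 181 RPM (SD, n = 2) in the inputs and 368 ± 53.8 RPM (SD, n = 2) in the IPs. The log2 change was -1.48 ± 0.20 (SE; adjusted p = 0.00144, edgeR's quasi-likelihood test over 35 classes and tRNA types with Benjamini-Hochberg adjustment). Of those 35 classes and types 74.3% were lower and 8.57% higher, so a fall was the common outcome. The median over the 35 was a log2 change of -1.48, the value of tRNA-Asp itself. Over all names, which were tested separately, the median was -2.44.

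As a share of the reads of all nuclear tRNAs, tRNA-Asp made up 4.39% and 4.78% of the inputs and 7.94% and 7.21% of the IPs. With those reads as the library size the log2 change was 0.73 ± 0.09 (adjusted p = 0.00480, same test), where 25.7% of the classes and types were lower and 51.4% higher. The median over the classes and types was again the value of tRNA-Asp, 0.73. The sign of the total thus depends on what it is set against: it was also positive with DESeq2's size factors (0.67, adjusted p = 6.87e-05) and with bovine microRNA reads as the library size (3.30, adjusted p = 0.00160), and it did not pass with TMM factors (-0.15, adjusted p = 0.431; range over all its alternatives 4.34e-08 to 0.431). The rise among tRNA reads did not pass for reads of 18 to 32 nt (0.33, adjusted p = 0.0749). It was negative when each distinct sequence was counted once (-0.27, adjusted p = 0.0626; range over its alternatives 0.00182 to 0.0749).

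Among 24 nuclear tRNA types, 18 were lower and 2 higher with listed reads as the library size, and 12 had a lower log2 change than tRNA-Asp. The median over these types was -1.69. Of these, tRNA-Glu, tRNA-Gly and tRNA-Val are named here as a fixed choice and not by abundance. Their log2 changes were -3.60 for tRNA-Glu, -2.09 for tRNA-Gly and -2.60 for tRNA-Val. With nuclear tRNA reads as the library size they were -1.39, 0.11 (adjusted p = 0.111) and -0.39. tRNA-Lys, with a higher input mean (2756 RPM) than tRNA-Val (1896 RPM), had a log2 change of -3.32 with listed reads. Differences between types were not tested.

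The fall of tRNA-Asp was spread unevenly over the 6 fragment types of the annotation. Pieces from the 3′ side of the molecule that end at 72 or later were at 1.17 RPM or below in the IPs, the short 5′ pieces did not pass the test, and the misc-tRF fragments, which start after position 1 and end at 71 or before, fell by less. By the edgeR test over 132 combinations of tRNA type and fragment type, 5 of the 6 were lower (3 without input 2) and none higher, where 53% of all combinations were lower and 3.03% higher. The median over the 6 was -4.47, against -1.41 over all combinations.

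The 5p-tRF, which starts at position 1 and ends between 18 and 29, had 130 RPM in input 1, 107 RPM in input 2, 128 RPM in IP 1 and 91.7 RPM in IP 2. The groups overlapped, and the log2 change of -0.10 ± 0.27 (SE) did not pass (adjusted p = 0.780). The longer 5p-tR-half, which starts at the same base and ends between 30 and 36, had 38 and 27.3 RPM in the inputs and 2.60 and 2.26 RPM in the IPs. Its groups did not overlap, with a log2 change of -3.72 ± 0.34 (SE; adjusted p = 1.20e-08). For each read that started at 1 and ended at 30 to 36, 3.41 and 3.86 reads of the inputs and 48.6 and 39.8 reads of the IPs ended at 18 to 29.

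The misc-tRF fragments, with starts between 2 and 51, were the most abundant type in every library, with 464 and 609 RPM in the inputs and 275 and 236 RPM in the IPs. Both IPs lay below both inputs, with a log2 change of -1.07 ± 0.21 (SE; adjusted p = 0.000234), and the change did not pass without input 2 (-0.86, adjusted p = 0.0678; range over its alternatives 6.47e-23 to 0.24). The 3p-tR-half, which starts between 37 and 46 and ends between 72 and 75, had 247 and 384 RPM in the inputs. In the IPs it had 1.17 and 0.271 RPM, from 13 and 3 reads. Its log2 change of -8.74 ± 0.45 (SE; adjusted p = 2.13e-12) was the largest of the 6 types.

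The 2 rarer types of the 3′ side are shorter pieces that start between 44 and 50. The 3p-CCA-tRF, which ends with the CCA tail, had 15.8 and 23.6 RPM in the inputs and 0.180 and 0 RPM in the IPs. Its 49 input reads and 2 IP reads gave a pooled ratio of IP to input of 0.00447 (exact 95% counting interval 0.000527 to 0.0170). The 3p-tRF had 3.71 and 4.43 RPM in the inputs and 0.146 and 0.00874 RPM in the IPs, the latter from shares of reads that sum to less than 1 read. It fell (adjusted p = 0.00181) on few reads, and the call was lost without input 1 (adjusted p = 0.0888), without input 2 (adjusted p = 0.117), and with DESeq2 (adjusted p = 0.277; range over its alternatives 0.000296 to 0.725).

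Set against the reads of all nuclear tRNAs, 2 of the 6 types were higher and 3 lower, where 37.1% of all combinations were higher and 26.5% lower. The 5p-tRF had a log2 change of 2.08 ± 0.22 (SE; adjusted p = 4.17e-17, edgeR) and the misc-tRF of 1.14 ± 0.19 (SE; adjusted p = 2.47e-08, edgeR). The 3p-tR-half stayed lower at -6.54 ± 0.35 (SE; adjusted p = 4.29e-49, edgeR) and the 5p-tR-half at -1.54 ± 0.41 (SE; adjusted p = 0.000380, edgeR), the latter with a positive sign when scaled to microRNA reads (1.02). When each distinct sequence was counted once, the 5p-tRF was lower (-0.97, adjusted p = 1.81e-06, edgeR; range over its alternatives 5.23e-20 to 0.945).

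**Figure D1:**
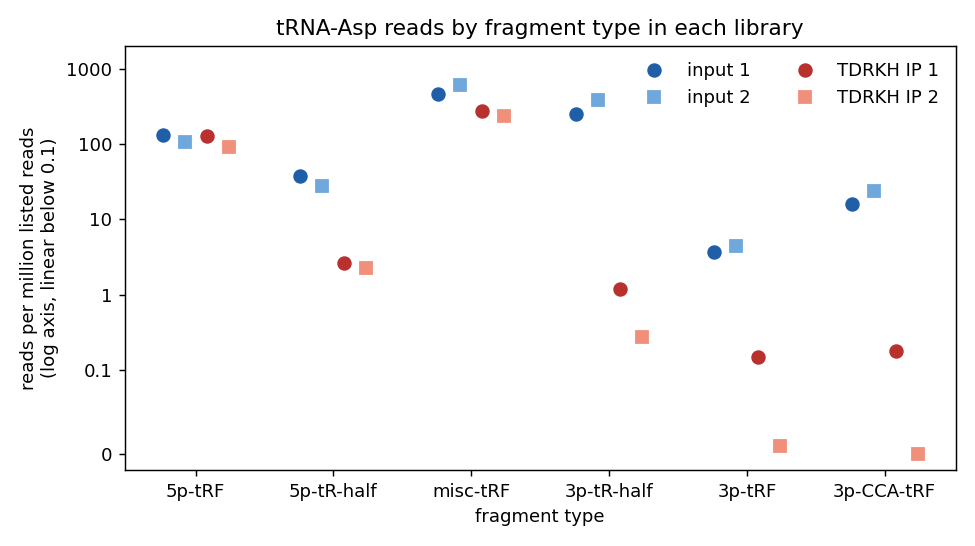
tRNA-Asp reads of the 6 fragment types in RPM on a log axis that is linear below 0.1, with 1 point for each library. The 4 libraries lie together for the 5p-tRF (91.7 to 130 RPM), and the IP points lie far below the input points for the 3p-tR-half (0.271 and 1.17 against 247 and 384 RPM).

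The same types were compared in tRNA-Glu, tRNA-Gly and tRNA-Val. The 5p-tRF had log2 changes of -0.46 in tRNA-Glu (adjusted p = 0.174), -1.05 in tRNA-Gly and -0.12 in tRNA-Val (adjusted p = 0.676). Their 5p-tR-half, abundant in the inputs with a mean of 1797 RPM for tRNA-Glu, 7221 RPM for tRNA-Gly and 1231 RPM for tRNA-Val, had log2 changes of -9.32, -8.17 and -8.27. For tRNA-Asp the input mean of the 5p-tR-half was 32.7 ± 7.54 RPM (SD, n = 2), below its own 3p-tR-half at 316 ± 96.6 RPM (SD, n = 2). The other 3 types had the opposite order, with a 3p-tR-half of 479 ± 120 RPM in tRNA-Glu, 1.30 ± 0.788 RPM in tRNA-Gly and 5.91 ± 3.12 RPM in tRNA-Val (SD, n = 2) in the inputs. Its log2 changes were -7.90 in tRNA-Glu, -3.51 in tRNA-Gly (adjusted p = 0.224) and -5.80 in tRNA-Val. The length bound applies to these types too. The misc-tRF had log2 changes of -1.65 in tRNA-Glu, -0.58 in tRNA-Gly and -4.01 in tRNA-Val, and the 3p-CCA-tRF of -6.52, -2.05 and -0.14 (adjusted p = 0.780).

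The change differed by where on the molecule a fragment began. Of the 1262 sequences, 1168 could be placed on the molecule with at most 2 differing bases. In the inputs the reads of the 3′ side started at many positions from 35 to 48, and in the IPs they started almost all at 35, the middle base of the anticodon. By the edgeR test over 57 rows, in which tRNA-Asp was split by start position, 14 of 23 start positions with at least 20 reads were lower and none higher, where 63.2% of all rows were lower and 3.51% higher. The median was -4.25 over the 23 positions and -2.03 over all rows. Many of these positions passed the limit of 20 reads through the inputs alone or the IPs alone. These counts and medians are therefore not read further.

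Fragments that started at 35 had 231 RPM in input 1, 261 RPM in input 2, 221 RPM in IP 1 and 188 RPM in IP 2. The IPs lay just below the inputs, and the log2 change of -0.27 ± 0.19 (SE) did not pass (adjusted p = 0.268). One base further on the picture was different. Fragments that started at 36 had 44.5 and 68.7 RPM in the inputs and 7.0 and 6.06 RPM in the IPs, a log2 change of -3.12 ± 0.29 (SE; adjusted p = 0.000212). Fragments that started at 37, the first base after the anticodon, had 55.6 and 135 RPM in the inputs and 5.66 and 4.43 RPM in the IPs, a log2 change of -4.25 ± 0.49 (SE; adjusted p = 0.000483).

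The IPs held still fewer of the fragments that started at 38 or later. Start position 38 had 57.4 and 44.3 RPM in the inputs and 0.539 and 0.995 RPM in the IPs. Start position 39, the most used of this stretch in the inputs, had 92.6 and 185 RPM there and 0.628 and 0.0904 RPM in the IPs, from 7 reads and 1 read. The groups did not overlap at any start position from 36 to 48, and all 13 were lower (highest adjusted p = 0.00180). Those from 38 to 48 had at most 11 reads in an IP and passed the filter of 20 reads through the inputs alone. Their calls are therefore not read as support. The 9 positions from 40 to 48 together had 175 and 245 RPM in the inputs and 1.62 and 0.181 RPM in the IPs. Their 521 input reads and 20 IP reads put the IPs 238-fold lower (exact 95% counting interval 152 to 392). Position 46, with 56 input reads and none in the IPs, was at least 170-fold lower, taking 3 reads over the IPs as the limit.

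Taken as 1 stretch, fragments that started at 36 to 51 had 428 and 680 RPM in the inputs and 15.5 and 11.8 RPM in the IPs. For each read of that stretch there were 0.539 and 0.384 reads that started at 35 in the inputs and 14.2 and 16 in the IPs. Start 35 took 25.7% and 22.6% of the tRNA-Asp reads of the inputs and 54.4% and 57% of those of the IPs, while starts 36 to 51 took 47.6% and 58.9% against 3.82% and 3.56%.

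In 1 further comparison the reads were held to a band of lengths. At 32 to 35 nt, fragments that started at 35 had 198 and 217 RPM in the inputs and 199 and 172 RPM in the IPs, and those that started at 36 to 51 had 285 and 473 RPM and then 11.0 and 9.13 RPM. Lengths inside this band were not matched between the 2 sets, and whether length had a part in the contrast was not tested. Starts 36 to 51 were also split by end. Those ending at 70 or before had 93.6 and 193 RPM in the inputs and 13.6 and 11.1 RPM in the IPs, and those ending at 71 to 75 had 334 and 487 RPM and then 1.89 and 0.633 RPM. Both sets were lower in both IPs, the second with 28 IP reads in all. All reads ending at the last base of the CCA tail had 117 and 191 RPM in the inputs and 0.898 and 0.181 RPM in the IPs.

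**Figure D2:**
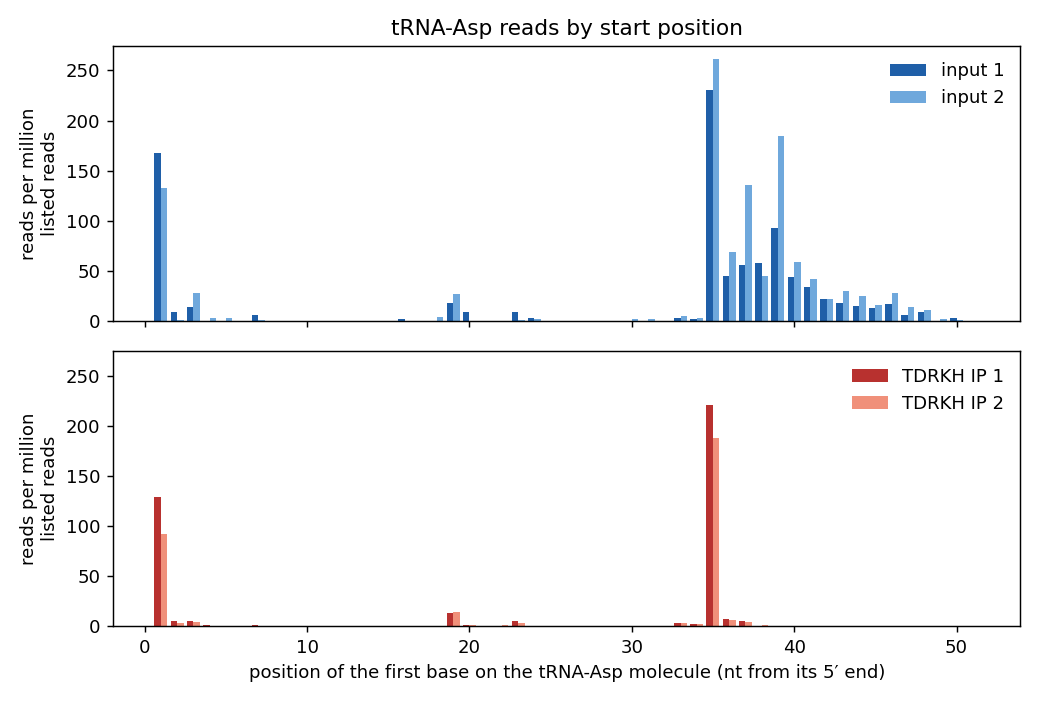
tRNA-Asp reads by the position of their first base, in RPM, for the inputs (top) and the TDRKH IPs (bottom), with 1 bar for each library on the same axis. Start 35 is at 188 to 261 RPM in all 4 libraries, and the input bars from 36 to 48 have only low counterparts in the IPs.

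At the 5′ side, fragments that started at position 1 had 168 and 133 RPM in the inputs and 129 and 92.1 RPM in the IPs. Both IPs lay below both inputs, but the log2 change of -0.44 ± 0.26 (SE) did not pass (adjusted p = 0.185). Start position 3 fell, with 13.9 and 27.3 RPM in the inputs and 5.12 and 4.34 RPM in the IPs (log2 -2.15 ± 0.38 SE; adjusted p = 0.00323). Start position 19, in the D loop, had 17.6 and 27.3 RPM in the inputs and 12.7 and 13.8 RPM in the IPs, and missed the threshold narrowly (log2 -0.78 ± 0.28 SE; adjusted p = 0.0503).

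The 23 positions can also be grouped by the base of the molecule at which the fragment starts. At the 6 positions that hold T (1, 7, 19, 23, 33 and 35) none was lower, and at the 17 that hold another base 14 were lower. The exceptions were positions 2, 20 and 34. Position 7, which holds T, had a log2 change of -1.74 that did not pass (adjusted p = 0.233, edgeR). Positions 2, 7, 20, 23, 33 and 34 had at most 9 reads in an input and passed the filter of 20 reads only with their IP reads. Positions 38 to 48 had at most 11 reads in an IP and passed it through the inputs. The filter thus shaped this split, and nothing is read from its counts. Positions with T and others are not spread alike along the molecule, since all 13 positions from 36 to 48 hold another base, so base and position cannot be told apart there.

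With nuclear tRNA reads as the library size, 5 start positions were higher and 13 lower, where 40.4% of all rows were higher and 38.6% lower. The higher ones were 1 (log2 1.74), 19 (1.44), 33 (2.0), 34 (1.94) and 35 (1.93). All 13 lower ones were those from 36 to 48, of which 38 to 48 passed the filter through the inputs alone. Positions 33 and 34 passed it through the IPs alone. The signs of positions 36 and 37 were positive with microRNA reads as the library size (1.64 and 0.52). Position 36 did not pass with DESeq2 (-0.97, adjusted p = 0.157; range over its alternatives 2.68e-17 to 0.157). When each distinct sequence was counted once, start 1 (-1.31, adjusted p = 0.000827) and start 35 (-1.23, adjusted p = 0.000297) were lower, by edgeR, and the adjusted p ranged over alternatives from 6.47e-09 to 0.66 for start 1 and from 1.24e-20 to 0.916 for start 35.

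**Figure D3:**
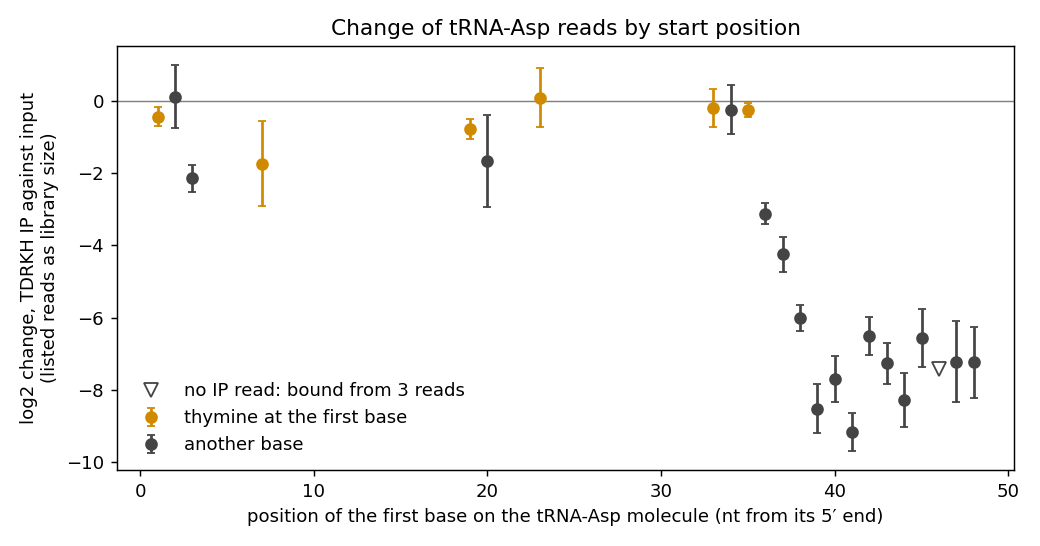
Log2 change of TDRKH IP against input by start position, with listed reads as library size, for positions with at least 20 reads. Points are the fitted changes, bars their SE, and the open triangle at 46 a bound from 3 reads over the IPs. Points of position 35 (-0.27) and before lie at -2.15 or above, and those from 36 on at -3.12 or below.

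The first base of the reads also differed between the groups. T was the first base of 47.7% and 37.1% of tRNA-Asp reads in the inputs and of 92.4% and 92.6% in the IPs. The means were 42.4% ± 7.52 (SD, n = 2) and 92.5% ± 0.203 (SD, n = 2), a difference of 50.1 percentage points. Both IPs lay above both inputs, but an exact permutation test of 2 against 2 libraries cannot give a p below 0.333, the value found (two-sided). The Wilson 95% intervals were 44.6% to 50.9% in input 1 and 91.5% to 93.1% in IP 1, and they cover counting error only. G, the first base of 20.7% and 26.5% of the input reads, began 1.17% and 1.12% of the IP reads.

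This was a rise in the share of tRNA-Asp reads. In RPM, starts 1 and 35, which hold T, were not higher in the IPs. Start 1 had 168 and 133 RPM in the inputs and 129 and 92.1 RPM in the IPs. Start 35 had 231 and 261 RPM and then 221 and 188 RPM. Starts 36 to 51, which hold other bases, had 428 and 680 RPM and then 15.5 and 11.8 RPM. The rise in share was smaller for reads of 18 to 32 nt (34.7 percentage points) and when each distinct sequence was counted once (31 percentage points). A rise in share was also seen in other tRNAs. Over all other nuclear tRNA types T began 26.5% and 28.4% of the input reads and 77.1% and 76.5% of the IP reads. Of 14 types with at least 200 input reads, tRNA-Asp among them, 13 had both IPs above both inputs, and 3 had a larger rise than tRNA-Asp. The exception was tRNA-Val, with T at 15.2% and 18.1% in the inputs and 11.7% and 12.2% in the IPs. Reads of piRNA clusters began with T at 87.7% and 88.5% in the inputs and 88.6% and 87.8% in the IPs.

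In every library most tRNA-Asp reads were of 32 to 36 nt, and reads of 25 to 27 nt took a larger part of them in the IPs than in the inputs. The range of 25 to 27 nt held 10.7% and 7.75% of the tRNA-Asp reads of the inputs and 26.2% and 23.0% of those of the IPs, 28 to 31 nt held 12.7% and 9.47% against 4.78% and 3.81%, and 32 to 35 nt held 56.9% and 62.9% against 54.1% and 57.5%. Reads of 36 nt fell from 13.6% and 14.8% to 4.86% and 4.19% of the tRNA-Asp reads. In reads of piRNA clusters the range of 25 to 27 nt held 61.5% and 60.5% of the inputs and 57.6% and 56.4% of the IPs. There 32 to 35 nt held 0.828% and 0.885% against 0.845% and 0.753%.

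By the edgeR test over 427 combinations of class and length, 10 of the 19 lengths of tRNA-Asp were lower and none higher, where 64.6% of all combinations were lower and 5.62% higher. Those lower were 21 nt and each length from 28 to 36 nt. Reads of 27 nt had 27.8 and 46.7 RPM in the inputs and 49.5 and 34.8 RPM in the IPs, and the groups overlapped (log2 0.16; adjusted p = 0.656). Reads of 30 nt had 20.4 and 39.9 RPM in the inputs and 0.808 and 1.45 RPM in the IPs (log2 -4.74; adjusted p = 5.62e-25). Reads of 33 nt, with 140 and 165 RPM in the inputs and 67.6 and 67.0 RPM in the IPs, were lower by less (log2 -1.18; adjusted p = 1.19e-06). The median over the 19 lengths was -1.13, against -1.77 over all combinations.

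**Figure D4:**
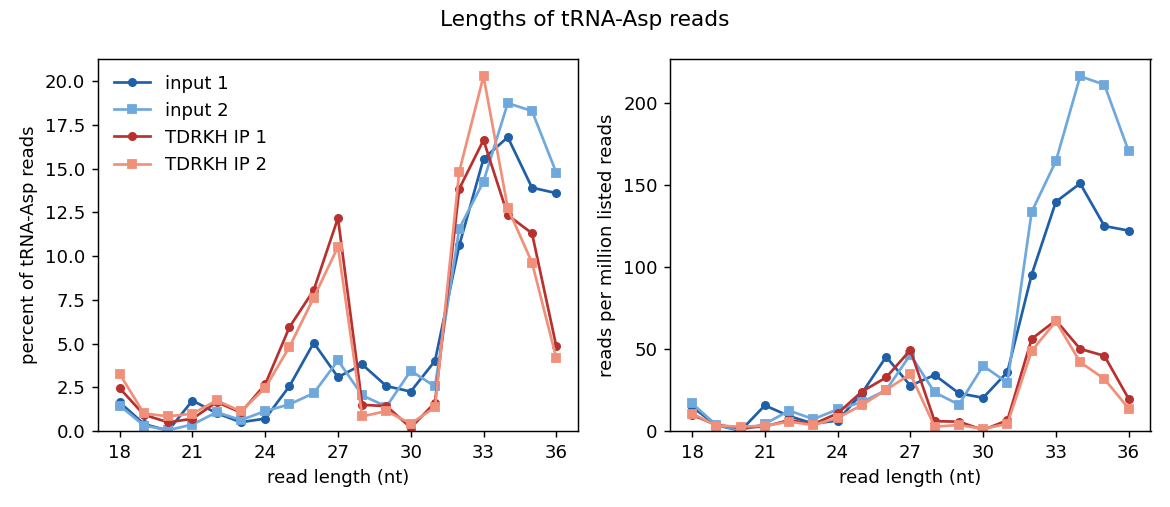
Lengths of tRNA-Asp reads in each of the 4 libraries, as a percent of tRNA-Asp reads (left) and in RPM (right). At 27 nt the libraries lie together at 27.8 to 49.5 RPM, and at 36 nt the inputs (122 and 171 RPM) lie above the IPs (19.8 and 13.8 RPM).

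Single sequences were also compared. Of the 1202 sequences with at least 50% of their names from tRNA-Asp, 58 were seen in all 4 libraries and 836 in 1 library only, and 18 had at least 10 RPM in 2 libraries. By the edgeR test over 11786 sequences, 11 of the 18 were lower, none was higher and 7 did not pass, where 19.9% of all sequences were lower and 41.9% higher. All 11 lower ones, among them the 9 that started at 36 or later, passed the filter of 10 RPM through the inputs alone, with at most 8.98 RPM in an IP. A lower value in the IPs was thus built into their choice, and nothing is read from these counts.

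The sequence of positions 35 to 66 was among those with the most reads in both groups. It had 20.4 and 32.5 RPM in the inputs and 36.4 and 32.5 RPM in the IPs, where both IPs lay above both inputs, IP 2 by less than the digits given (log2 0.36 ± 0.33 SE; adjusted p = 0.327). Its longer forms, which end at 67, 68 and 69, had 21.3 to 36.2 RPM in the inputs and 22.6 to 34.7 RPM in the IPs, which overlap, with log2 changes of 0.09, 0.19 and -0.12 (adjusted p = 0.798, 0.607 and 0.750). The form ending at 67 with G67A had 14.8 and 17.7 RPM in the inputs and 19.6 and 22.2 RPM in the IPs, where both IPs lay above both inputs (log2 0.35; adjusted p = 0.393). The 5p-tRF of positions 1 to 27 had 10.2 and 13.3 RPM in the inputs and 24 and 14.7 RPM in the IPs. Both IPs lay above both inputs, but the log2 change of 0.70 ± 0.41 (SE) did not pass (adjusted p = 0.130). The 5p-tRF of positions 1 to 26, shown after its values were seen, had 24.1 and 14.0 RPM in the inputs. In the IPs it had 21.7 and 16.9 RPM, with overlap (log2 0.05; adjusted p = 0.917).

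The form ending at 70, also shown after its values were seen, had 10.2 and 18.5 RPM in the inputs and 8.98 and 5.97 RPM in the IPs. It was lower by a log2 change of -0.97 ± 0.41 (SE; adjusted p = 0.0391). It passed the filter of 10 RPM through the inputs alone, so its p-value is not read as support.

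The sequence of positions 37 to 70 lacks only the first 2 bases of that form. It had 15.8 and 40.6 RPM in the inputs and 1.17 and 0.633 RPM in the IPs, a log2 change of -4.97 ± 0.47 (SE; adjusted p = 1.48e-10). It too passed the filter of 10 RPM through the inputs alone, so its p-value is not read as support. The sequence of positions 40 to 75, with the CCA tail, had 25 and 35.5 RPM in the inputs and 0.180 and 0 RPM in the IPs. Its 75 input reads and 2 IP reads gave a ratio of 0.00292 (exact 95% counting interval 0.000348 to 0.0109).

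The following 3 sequences were chosen after their values were seen. The sequence of positions 39 to 73 had 13.0 and 31.8 RPM in the inputs and no read in either IP, at least 173-fold lower with 3 reads over the IPs as the limit. Its form with A57T had 13.0 and 22.9 RPM in the inputs and none in the IPs, at least 137-fold lower. The 5p-tR-half of positions 1 to 36 had 16.7 and 11.8 RPM in the inputs and 0.0898 and 0.0904 RPM in the IPs, from 1 read each, while the 5p-tRF that shares its first 27 bases had higher RPM in both IPs than in both inputs without passing the test.

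The gene copies could be told apart only in part. Of the 133 names 42 passed the filter on low values, and 27 were lower, none higher and 15 not past the threshold by the edgeR test over 5414 names, where 58.3% of all names were lower and 16.5% higher. The median over the 42 was -1.12, against -2.44 over all names. The lower ones were all 14 names of the 3p-tR-half and all 13 of the misc-tRF, and those that did not pass were the 15 tested names of the 5p-tRF. These names hold only 14 distinct patterns of values, because the same reads are divided among several copies (10 to 12 for each of the 18 tested sequences), so they are not 42 measurements. The 14 names of the 3p-tR-half had at most 1.14 reads in an IP and passed the filter through the inputs alone, so their count supports nothing further.

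For each copy of the main group the misc-tRF had 37.9 and 51.5 RPM in the inputs and 22.5 and 19.3 RPM in the IPs (log2 -1.12; adjusted p = 0.00128), as in the name misc-tRF from trna2133-AspGTC. The 3p-tR-half from trna2133-AspGTC had 20.9 and 31.9 RPM in the inputs and 0.103 and 0.0240 RPM in the IPs, which are shares of 13 and 3 reads. The 5p-tRF from trna2133-AspGTC had 10.5 and 8.52 RPM in the inputs and 9.84 and 6.96 RPM in the IPs, with overlap (adjusted p = 0.677). Without input 2, 11 of the names were lower, none of them of the misc-tRF.

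Copy trna2388-AspGTC stands out by 2 bases, G20T and G56A, and had 901 reads that named it alone. Its own reads had 55.6 and 55.4 RPM in the inputs and 38.2 and 30.7 RPM in the IPs, and it made up 6.18% and 4.80% of the tRNA-Asp reads of the inputs and 9.41% and 9.31% of those of the IPs. Among fragments that started at 35, G56A was at 7.23% and 6.78% in the inputs and 8.38% and 7.88% in the IPs. The Wilson interval of IP 1, 7.35% to 9.54%, overlaps that of input 1, 4.62% to 11.1%. Its misc-tRF, given by the name misc-tRF from trna2388-AspGTC, had a log2 change of -0.86 (adjusted p = 0.00282). That call was lost without input 1 (adjusted p = 0.112), without input 2 (adjusted p = 0.0901), with no filter (adjusted p = 0.0984) and for reads of 18 to 32 nt (-0.42, adjusted p = 0.591). Its 5p-tRF, given by the name 5p-tRF from trna2388-AspGTC, had a log2 change of 0.12 (adjusted p = 0.737).

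Copy trna6610-AspGTC, marked by G6T, had 0 and 5 own reads in the inputs (0 and 3.69 RPM) and 78 and 61 in the IPs (7.0 and 5.52 RPM). Its 5p-tRF, given by the name 5p-tRF from trna6610-AspGTC, had shares of 1.08 and 5 reads in the inputs. The log2 change of 1.32 ± 0.56 (SE) did not pass (adjusted p = 0.0660, edgeR). Among fragments that started at 1, G6T was at 1.10% and 3.33% in the inputs and 5.78% and 6.08% in the IPs. The Wilson interval of input 1, 0.304% to 3.94%, overlaps neither that of IP 1, 4.68% to 7.10%, nor that of IP 2, 4.78% to 7.72%, while that of input 2, 1.54% to 7.08%, overlaps both.

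A further difference, A57T, was not tied to a single copy. It was found in 12.9% and 16% of input reads that started at 36 to 51 and covered the position, and in 0.402% and 0.847% of input reads that started at 35. In the IPs it was found in 4.05% and 0% of the former, the latter 0 of 129 reads with a Wilson upper bound of 2.89%, and in 2.60% and 1.06% of the start 35 reads. Within each input the 2 sets of fragments thus differed in this base by more than their Wilson intervals, 10.2% to 16.3% against 0.0709% to 2.24% in input 1 and 13.7% to 18.5% against 0.289% to 2.46% in input 2.

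Some fragments ended with an A that the molecule does not hold at that position. Among reads that started at 35 this was 9.24% and 11.0% in the inputs and 14.8% and 18.1% in the IPs. Among reads that started at 36 to 51 it was 0.433% and 0.326% in the inputs and 11.0% and 13.8% in the IPs, the latter of 173 and 130 reads. For 5p-tRF reads, which start at 1 and end at 18 to 29, it was 3.57% and 16.1% in the inputs and 14.4% and 14.9% in the IPs, so the 2 inputs differed more from each other than IP 1 from IP 2. Of these 3 sets, the first and the second had both IPs above both inputs. An A in the genome or in another copy cannot be told apart from an added A.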

How the data were processed

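Small RNAs of 4 libraries, 2 inputs and 2 TDRKH IPs, were taken from the deposited read counts, 1 whole-number count for each distinct sequence, with annotation names from unitas, per the file headers and names. The sources used here give neither the settings nor the genome build of that annotation: both are not given. Per the labels' protocols, RNA came from TRIZOL and libraries from the NEXTflex Small RNA-Seq Kit V3. Counts include PCR copies, so intervals and limits cover counting error only.

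Every name of a tRNA fragment whose type begins with Asp was a member. The members, lists and tests were chosen with earlier results of these data known. Reads were shared equally among a sequence's names. Sums were tested with edgeR 4.0.16 (R 4.3.3; glmQLFit and glmQLFTest, listed reads as library size, filterByExpr for names), with Benjamini-Hochberg adjustment over each whole table and a threshold of 0.05. Sequences needed 10 RPM in 2 libraries, and lengths and start positions 20 reads over the 4 libraries. The molecule was joined from the reads by extending a 25-nt seed over overlaps of 15 bases. At least 5 reads supported each base, with at least 80.0% of them alike, except 1 base taken from the ends of reads. It is not a reference sequence. Start positions were added after the data were seen.

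Names, sequences and fragment types were named by rule: all 6 fragment types, and the names and sequences with the highest mean RPM in each group. The tests were checked on simulated data. Replicates were compared by chi-square and differed by more than sampling noise (chi-square per degree of freedom 2.79 between the inputs and 3.51 between the IPs over names), so each counted as 1 library. Alternatives were TMM factors, DESeq2 1.42.0, microRNA, nuclear tRNA or piRNA reads as library size, other filters, reads subsets, the replicate number as a block and leaving out each library. Other steps used Python 3.11.15, pandas 2.3.3, numpy 2.4.6, scipy 1.17.1 and matplotlib 3.10.9.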

Additional observations from a re-analysis of the deposited data

How the results depend on the processing

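The scaling decided most directions. Against listed reads the median log2 change of all names was -2.44, and it moved by 1.32 with TMM factors, 2.11 with DESeq2, 4.69 with microRNA reads and 2.18 with nuclear tRNA reads as library size, in that order below. The tRNA-Asp total became -0.15, 0.67, 3.30 and 0.73. The fragment types that rose numbered 1, 2, 3 and 2 instead of 0, and those that fell 2 with DESeq2, 2 with microRNA reads and 3 with nuclear tRNA reads instead of 5. The names that fell numbered 14 in each instead of 27, and those that rose 13, 24, 28 and 26 instead of 0. The sequences that rose numbered 7, 7, 8 and 8 instead of 0. The lengths that fell numbered 6, 2, 0 and 2 instead of 10, and those that rose 6, 9, 18 and 11 instead of 0. The start positions that rose numbered 2, 3, 9 and 5 instead of 0, and 7 instead of 14 fell with microRNA reads. In the same order, the 5p-tRF became 1.23, 2.03, 4.67 and 2.08, the misc-tRF 0.26, 1.07, 3.70 and 1.14, start 1 0.89, 1.70, 4.34 and 1.74, start 35 1.07, 1.87, 4.50 and 1.93, and the sequence ending at 69 1.21, 2.04, 4.65 and 2.09. The misc-tRF names of 10 copies became 0.22, 1.04, 3.66 and 1.10, of trna2388 0.47, 1.27, 3.899 and 1.34, and the 5p-tRF names of 10 copies 1.16, 1.97, 4.58 and 2.03. With microRNA reads the 5p-tR-half became 1.02, start 36 1.64 and start 37 0.52. With piRNA cluster reads the sequence ending at 67 became -0.040 and the 5p-tRF name of trna2388 -0.012. The 3p-tR-half, 3p-CCA-tRF and start 39 stayed lower under every scaling.

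Sequences seen more than once gave 0.17 for the 5p-tRF, 0.022 for its names of 10 copies, -0.11 and -0.011 for the sequences ending at 67 and 68, and 1 name that rose. Exact matches gave 0.038 for start 35. Reads of 18 to 32 nt gave 0.33 for tRNA-Asp against other tRNA types, 2 sequences and 6 lengths that fell, and a rise in T of 34.7 points. Distinct sequences counted once gave -0.27 against other types and a rise of 31 points. No filter on names left 12 that fell. Sequences of 2 RPM in 2 libraries gave 32 that fell, and of 5 reads over the 4 libraries 0 by edgeR.

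Leaving out each library in turn, the total ranged from -1.65 to -1.29 and its change against other types from 0.65 to 0.79. The counts that fell ranged from 3 to 5 for fragment types, 11 to 27 for names (the low values without input 2), 10 to 11 for sequences, 9 to 10 for lengths and 14 to 15 for start positions. Start positions that rose ranged from 0 to 1. The rise in T ranged from 44.8 to 55.4 points, the 5p-tRF from -0.36 to 0.11, its names of 10 copies from -0.44 to 0.059 and of trna2388 from -0.13 to 0.34, and the sequence ending at 69 from -0.44 to 0.33.

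The replicate number as a replicate block gave -1.48 for the total (adjusted p = 0.0155) 26 names and 10 sequences that fell, and the same counts for fragment types, lengths and start positions. Same-numbered libraries did not deviate together over names (correlation 0.00439). That value comes from a single difference within each group, so it cannot tell whether same-numbered libraries share oocytes or preparation. Depth limits the inputs most, with 970 and 1563 tRNA-Asp reads, and a fragment at 0 there may lie below 3 reads. Over all alternatives, the values of single items kept their direction and side of the threshold in 266 cases, no longer passed in 20, newly passed in 27 and changed sign in 48. The causes were not tested.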
